A study of Mus musculus with 29 samples.

Results

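The genes followed here are 39 mouse genes of DNA replication and of the supply of its nucleotides, measured on expression arrays while embryonic stem cells were taken to a midbrain neuron stage. The members were named as a list, and each was read from the transcript cluster (the array's set of probes for 1 transcript) that carries its symbol and no other. Of the 39 genes, 38 had such a cluster, out of 30142 genes measured this way. The cluster of Mcm7, a subunit of the replicative helicase, also carries the microRNA genes Mir93 and Mir25 and was therefore not followed. All 38 measured members passed the filter on low values that left 22063 genes for testing.

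Mouse embryonic stem cells of a pair of genotypes were compared: BERKO, in which estrogen receptor beta (the Esr2 gene) is knocked out, and wild type (WT). Each genotype was followed through 4 stages, namely stem cells (mESC), neural precursor cells (NPC), midbrain precursors (mDPC) and cells matured to midbrain neurons (MN). All cultures were kept without feeder cells, NPC with FGFb, mDPC with FGFb, FGF8b and Shh, and MN without these factors. At NPC, mDPC and MN the groups were BERKO with LY3201, BERKO untreated, WT with LY3201 and WT untreated, and at mESC they were BERKO and WT, both untreated. LY3201 is an agonist selective for estrogen receptor beta and was given at 0.5 nM. The protocol gives 4 days of treatment, and DMSO as the vehicle, for NPC and mDPC, and the length of treatment of MN is not given in the sources used here. Untreated BERKO MN had 3 arrays and each of the other 13 groups had 2, which makes 29 arrays in 14 groups, described as biological replicates. The labels name no clone or passage for either genotype, so each may rest on a single line of cells.

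Before a cell divides it copies its genome once. In G1 the origin recognition complex, Cdc6 and Cdt1 load the ring-shaped MCM helicase onto origins, and in S phase the kinase Cdc7, Mcm10, Cdc45 and the GINS complex switch the helicase on, after which primase, the polymerases, the PCNA clamp and its RFC loader build the new strands. Ribonucleotide reductase, thymidylate synthase and thymidine kinase supply the deoxynucleotides. Many of these genes are targets of E2F factors, and in neural lineages their transcripts are abundant in dividing progenitors and low in neurons, which have left the cell cycle.

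The promoters of 30 of the 38 members were found in RefSeq (build GRCm38.p6), each as 250 bases before to 50 bases after the gene's start. The promoters of 4 genes are shown because the results below turn on these genes: the helicase subunits Mcm6 and Mcm3, the ribonucleotide reductase subunit Rrm1, and the origin recognition subunit Orc6. They read 5′ to 3′ on the gene's own strand, with capitals marking the E2F letters TTTCCCGC, TTTGGCGC, TTTCGCGC or TTTGCCGC and the letters CCAAT, on either strand.
Mcm6 promoter, chr1:128359656-128359955, minus strand: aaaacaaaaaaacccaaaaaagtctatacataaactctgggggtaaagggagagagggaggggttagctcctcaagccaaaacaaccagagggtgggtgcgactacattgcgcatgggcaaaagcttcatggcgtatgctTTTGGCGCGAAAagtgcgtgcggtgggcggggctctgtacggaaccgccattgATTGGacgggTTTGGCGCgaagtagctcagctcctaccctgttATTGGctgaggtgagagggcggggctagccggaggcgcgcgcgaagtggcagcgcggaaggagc
Mcm3 promoter, chr1:20820263-20820562, minus strand: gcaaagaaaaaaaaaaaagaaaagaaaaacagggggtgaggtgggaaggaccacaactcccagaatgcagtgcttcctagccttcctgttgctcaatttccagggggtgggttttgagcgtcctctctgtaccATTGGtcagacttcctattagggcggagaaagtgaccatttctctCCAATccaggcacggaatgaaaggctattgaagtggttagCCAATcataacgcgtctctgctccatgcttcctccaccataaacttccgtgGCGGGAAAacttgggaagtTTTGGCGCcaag
Rrm1 promoter, chr7:102441445-102441744, plus strand: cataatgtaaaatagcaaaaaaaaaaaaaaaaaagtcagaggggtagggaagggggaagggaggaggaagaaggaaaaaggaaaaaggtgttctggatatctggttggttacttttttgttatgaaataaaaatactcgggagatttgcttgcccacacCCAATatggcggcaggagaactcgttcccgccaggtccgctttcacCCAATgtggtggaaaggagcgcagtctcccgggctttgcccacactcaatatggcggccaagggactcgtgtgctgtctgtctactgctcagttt
Orc6 promoter, chr8:85299382-85299681, plus strand: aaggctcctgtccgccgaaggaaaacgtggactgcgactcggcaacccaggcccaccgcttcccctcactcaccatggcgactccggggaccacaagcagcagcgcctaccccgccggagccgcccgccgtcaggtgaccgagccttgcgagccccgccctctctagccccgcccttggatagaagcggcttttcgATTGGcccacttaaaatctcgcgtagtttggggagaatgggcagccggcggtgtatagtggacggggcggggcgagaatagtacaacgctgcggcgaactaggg

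Mcm6 holds 3 matches to the E2F letters, of which 2 overlap, and Mcm3 holds 2, whereas none lies in the windows of Rrm1 and Orc6. Among the members, 11 of 30 promoters (36.7%) held E2F letters, against 4.0% of the 13032 tested genes and 2.6% of all 27025 genes with a promoter in the table. The 11 were Mcm3, Mcm5, Mcm6, Orc1, Cdt1, Cdc6, Gins3, Rfc3, Pola1, Pold1 and Lig1. CCAAT was found in 53.3% of member promoters and in 42.4% of those of tested genes, and the GC box GGGCGG in 76.7% and 59.2%. The letters TTTGAA or TTCGAA, the core of the cell cycle element CHR of mitosis genes, stood in 20.0% of member promoters and 17.4% of those of tested genes, and in 76.0% of the promoters of a list of mitosis genes. A match to letters describes the sequence and does not show that a factor binds there.

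Levels are log2 signals, so a difference of 1 is a doubling. The median over all clusters lay between 3.52 and 3.74 on every array, and replicates correlated at 0.9944 to 0.9985, with the widest differences between replicates in the pairs of WT MN with and without LY3201. The 95th percentile of the array's 5222 negative controls, used here as the level under which a signal cannot be told from background, lay between 6.63 and 7.66. Esr2 went against the labels: its signal was 3.8 to 4.46 on the 15 arrays labelled BERKO and 3.21 to 3.47 on the 14 arrays labelled WT, in each case under that level, and whether its probes lie in the deleted part is not given in the sources used here. Genotype is therefore used as labelled. Of the cell type markers, the 6 pluripotency genes averaged 14 to 14.1 in mESC and 4.59 or less at later stages. The 7 dopaminergic neuron markers averaged 4.0 to 4.35 on all arrays, none of them above the negative controls, so the MN stage did not show the markers of dopaminergic neurons. The microglia markers were likewise at background. In mixed cultures, fewer cells of a type and less RNA per cell cannot be told apart.

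Replication genes were most abundant in mESC, fell in 2 steps to mDPC, and were higher again in MN. Averaged over the 38 members, the level in untreated BERKO arrays was 10.52 to 10.56 in mESC, 7.57 to 7.69 in NPC, 5.69 to 5.74 in mDPC and 6.68 to 6.76 in MN. In untreated WT arrays it was 10.54 to 10.62 in mESC, 7.16 to 7.31 in NPC, 6.06 to 6.08 in mDPC and 6.39 to 6.47 in MN. These untreated arrays overlapped between the genotypes in mESC and at no later stage, with BERKO above WT in NPC and MN and below it in mDPC. With LY3201 the level was 7.46 and 7.47 in BERKO NPC and 7.18 and 7.35 in WT NPC, 5.67 and 5.73 in BERKO mDPC and 6.13 and 6.09 in WT mDPC, and 6.74 and 6.75 in BERKO MN and 6.73 and 6.89 in WT MN, so that the treated genotypes overlapped in MN. The number of members above the negative controls followed the same course, at 34 to 36 in mESC, 13 to 20 in NPC, 6 to 8 in mDPC and 11 to 16 in MN over all arrays of the stage. The negative-control level was itself lower in MN (6.632 to 6.942) than in mDPC (7.145 to 7.343), which favours a higher count in MN. Pcna (the clamp), Rfc2 and Rfc4 (its loader), Prim2 (primase), Rrm1 and Orc6 were above that level on all 29 arrays, and Rfc3 (loader) and E2f1 (the transcription factor) on none.

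**Figure D1:**
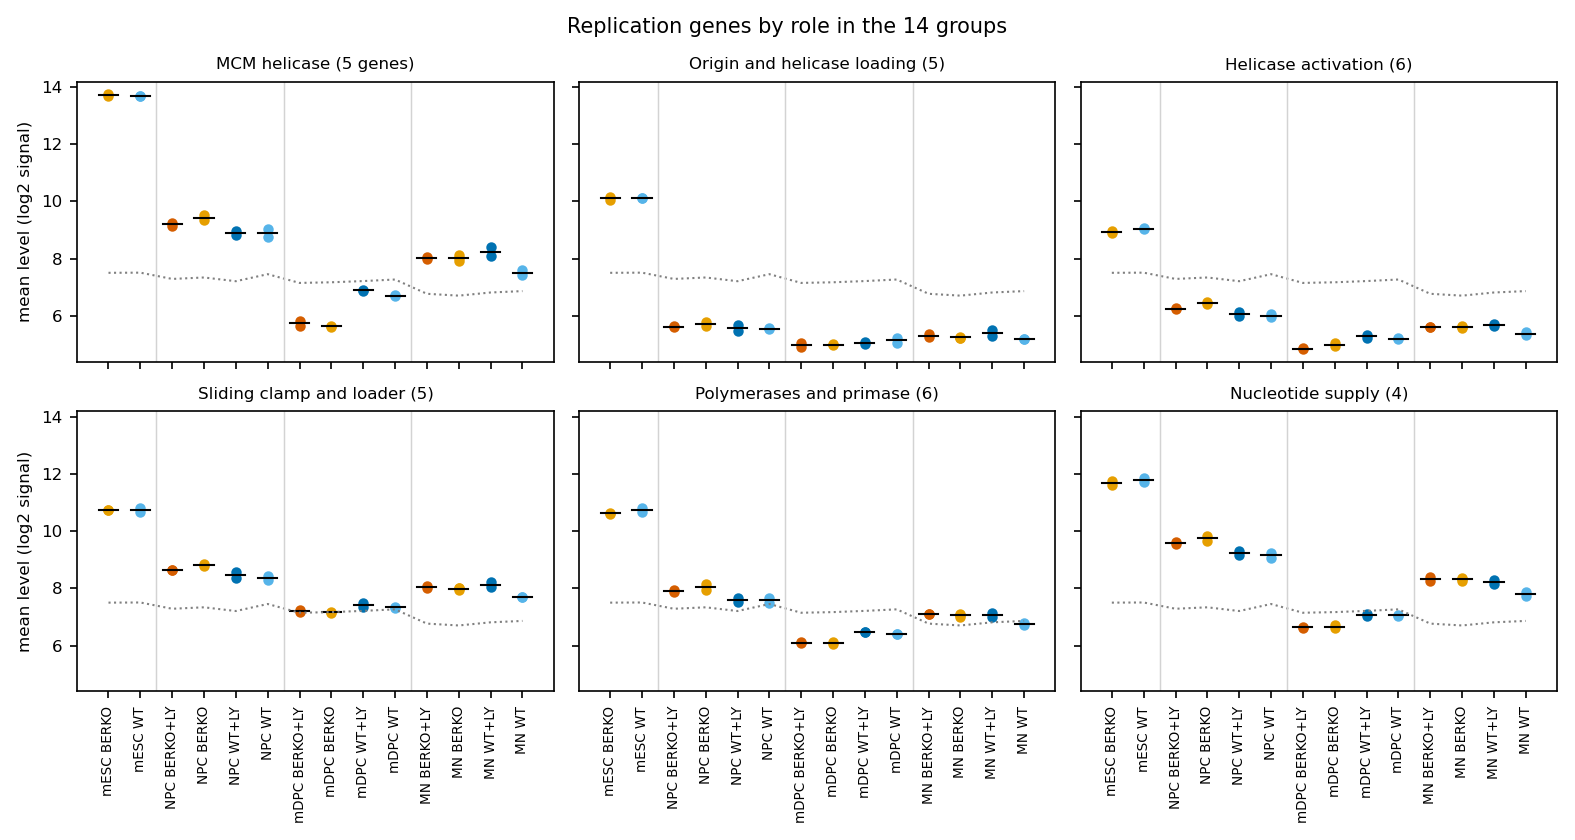
Mean log2 signal of the members of 6 roles (vertical axis) on each array, by group in stage order; points are arrays, short lines group means, and the dotted line the mean 95th percentile of the negative controls. The MCM helicase lies at 13.67 to 13.74 in mESC and at 5.61 to 6.92 in mDPC. The means of the loading and of the activation genes lie under the dotted line from NPC on, though the loading gene Orc6 does not.

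On leaving the stem cell state every role of replication fell, from helicase and loading genes to nucleotide supply, with 1 exception in BERKO. Mcm2, an MCM subunit, had 9.21 and 9.36 in BERKO NPC, against 13.97 and 14.04 in BERKO mESC. In WT it had 8.61 and 8.94 in NPC, against 13.93 and 14.12 in mESC. The stages were far apart in each genotype, with log2 differences of -4.72 ± 0.13 in BERKO and -5.25 ± 0.13 in WT (SE; limma, adjusted p = 9.46e-17 and 1.85e-17). Ccne1, the cyclin that drives S phase entry, had 6.12 and 6.13 in BERKO NPC and 5.81 and 6.0 in WT NPC, against 12.22 and 12.19 in BERKO mESC and 12.18 and 12.04 in WT mESC. Its NPC signals were under the negative controls, so its fall is a lower bound, at least 29.1-fold in BERKO and at least 25.2-fold in WT. The bound sets the mean of the brighter stage against the negative-control level of the dimmer arrays. The licensing factor Cdt1 was likewise at least 9.58-fold lower in BERKO and 11.2-fold lower in WT, and Orc1, the origin recognition subunit, at least 3.67-fold and 3.2-fold lower.

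Of the 38 members, 37 fell and 1 was higher at the step to NPC in BERKO (35.9% of tested genes were lower and 27.7% higher), and 38 of 38 fell in WT (35.0% lower). The member median was -2.83 in BERKO and -3.32 in WT, where all tested genes had a median of -0.10 and -0.04. The member that went the other way was Rrm1, the large subunit of ribonucleotide reductase. It had 14.04 and 14.06 in BERKO NPC, against 13.73 and 13.76 in BERKO mESC, a rise of 0.31 ± 0.09 (SE, adjusted p = 0.00642). In WT it had 13.18 and 13.33 in NPC, against 14.01 and 13.94 in mESC, a difference of -0.72 ± 0.09 (SE, adjusted p = 8.56e-07). The stages did not overlap in either genotype, and their order was opposite. Rrm2, the small subunit, fell in both, by 3.59 in BERKO and by 4.64 in WT on the log2 scale.

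From NPC to mDPC the largest measured falls were those of nucleotide supply and helicase genes. Most loading and activation genes were already under the negative controls in NPC, so the falls of the roles cannot be ranked. Rrm2 had 6.12 and 6.0 in BERKO mDPC, against 10.72 and 11.10 in BERKO NPC, and 6.82 and 6.72 in WT mDPC, against 9.87 and 10.21 in WT NPC. As mDPC lay under the negative controls, Rrm2 was at least 13.3-fold lower in BERKO and at least 6.82-fold lower in WT. Rrm1, which stayed above them, fell by 4.25 ± 0.09 in BERKO and by 3.08 ± 0.09 in WT (SE; adjusted p = 1.72e-17 and 4.14e-15). Pcna fell by 2.41 in BERKO and by 1.42 in WT. By count, 37 of 38 members were lower in BERKO (18.9% of tested genes) and 34 of 38 in WT (15.8%), none were higher, and the member medians were -1.49 and -0.87 (all tested genes 0.04 and 0.02). In 17 of the 37 and 19 of the 34, both stages lay under the negative controls, so the size of those falls is not given as a fold. Orc6 had 8.28 and 8.26 in BERKO mDPC, against 8.48 and 8.69 in BERKO NPC, and 8.31 and 8.33 in WT mDPC, against 8.38 and 8.44 in WT NPC. These were small differences, of which -0.32 in BERKO passed the test (adjusted p = 0.0458) and -0.09 in WT did not (adjusted p = 0.634).

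In MN part of the set was higher than in mDPC, in BERKO more than in WT. Mcm6 had 8.96, 8.99 and 8.97 in BERKO MN, against 5.88 and 5.69 in BERKO mDPC. In WT it had 8.23 and 8.06 in MN, against 7.54 and 7.23 in mDPC. MN exceeded mDPC in each genotype, and BERKO started lower and ended higher than WT. The BERKO rise was at least 3.48-fold, since mDPC was at background there, and the WT rise was 0.76 ± 0.14 (SE, adjusted p = 0.000221). Rrm1 rose by 2.24 ± 0.08 in BERKO and by 1.14 ± 0.09 in WT, and Pcna by 1.75 ± 0.09 and 1.01 ± 0.09 (SE). In all, 31 of 38 members rose in BERKO (20.1% of tested genes) and 17 of 38 in WT (18.0%), and none fell. In 16 of the 31 and 8 of the 17, both stages lay under the negative controls. The member medians were 0.71 and 0.23, where all tested genes had -0.15 and -0.10. Of the loading genes 2 of 5 were called in BERKO and 0 of 5 in WT, and of the helicase genes 5 of 5 and 4 of 5. The loading genes Cdc6, Cdt1 and Orc1, and Gmnn, an inhibitor of loading counted with them, were under the negative controls on every mDPC and MN array. These counts therefore do not set the roles apart. Set against NPC, MN was still lower for 36 of 38 members in BERKO (32.1% of tested genes lower, 21.4% higher) and 35 of 38 in WT (27.5% and 20.3%), and higher for none. Both stages lay under the negative controls in 16 of the 36 and 19 of the 35.

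**Figure D2:**
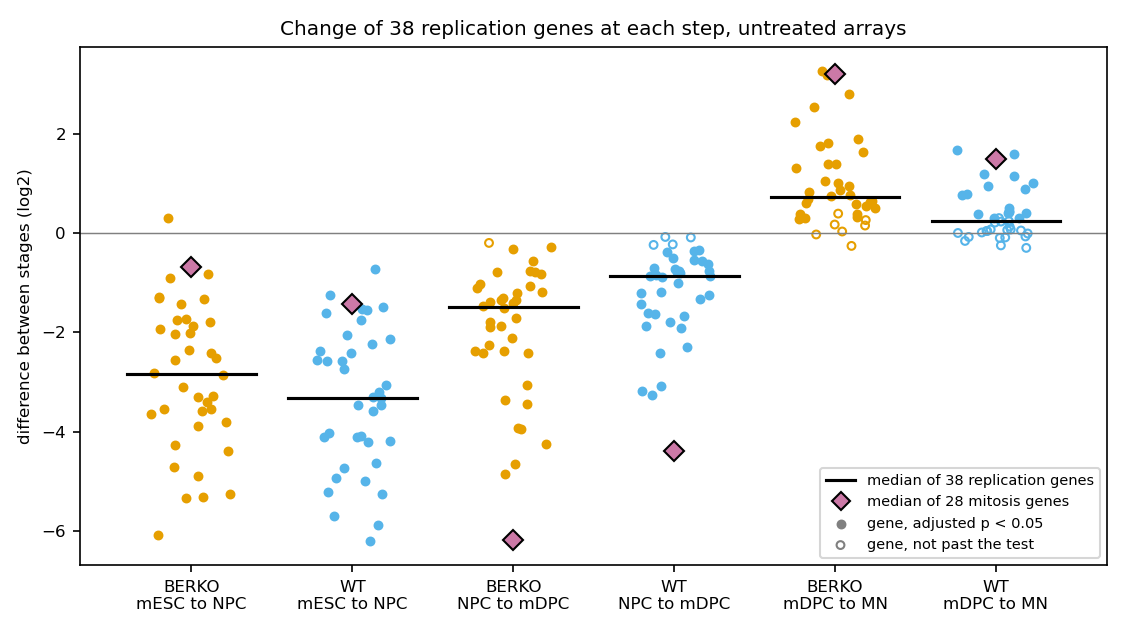
Log2 difference between consecutive stages (vertical axis) for each of the 38 members in untreated BERKO and WT arrays; filled points passed the test, bars are member medians and diamonds the medians of 28 mitosis genes. The member medians are -2.83 and -3.32 at the first step, and the mitosis medians -6.19 and -4.38 at the second; many signals in NPC and mDPC are under the negative controls, so the sizes of the steps cannot be ranked.

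The same steps among LY3201-treated arrays, which share no array with the untreated ones, gave 36 of 38 members lower from NPC to mDPC in BERKO (15.8% of tested genes) and 34 of 38 in WT (13.8%). Both stages lay under the negative controls in 18 of the 36 and 17 of the 34. From mDPC to MN, 33 of 38 were higher in BERKO (18.2%) and 28 of 38 in WT (17.7%), with member medians of 0.73 and 0.58. Here 18 of the 33 and 15 of the 28 were under the negative controls at both stages. In WT the untreated count of this step was 17, and the difference between treated and untreated steps was not tested.

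The genotypes differed in the size of each step by the test of that difference. The sizes are given first for Rrm1, Prim2 and Pcna, which were above the negative controls on all arrays and called at all 3 steps. Rfc2, Rfc4 and Orc6 were also above that level on all arrays and did not differ throughout. For Rfc2 the BERKO step minus the WT step was 0.7 and -0.6 at the earlier steps, both called. At the last step it was 0.31 and not called (adjusted p = 0.205). Rfc4 was called at no step (0.42, -0.5 and 0.65 in stage order), nor was Orc6 (0.01, -0.23 and 0.04). From mESC to NPC the step was less negative, or positive, in BERKO than in WT for 15 of 38 members (6.35% of tested genes differed in this direction), among them Rrm1 by 1.03 ± 0.13, Prim2 by 0.80 ± 0.16 and Pcna by 0.48 ± 0.13 (SE; adjusted p = 3.48e-05, 0.00242 and 0.0265). From NPC to mDPC 23 of 38 differed towards a larger fall in BERKO (4.99% of tested genes, with 3.68% the other way), with Rrm1 at -1.17 ± 0.13, Prim2 at -0.84 ± 0.16 and Pcna at -0.99 ± 0.13 (SE; adjusted p = 7.47e-06, 0.00169 and 5.89e-05). From mDPC to MN 20 of 38 differed towards a larger rise in BERKO (7.31% of tested genes, with 5.15% the other way), with Rrm1 at 1.10 ± 0.12, Prim2 at 0.63 ± 0.15 and Pcna at 0.74 ± 0.13 (SE; adjusted p = 4.78e-06, 0.00806 and 0.000478). Most other members had mDPC signals under the negative controls, Mcm2, Mcm3 and Rrm2 among them, so the sizes of their step differences are not given. No member differed in the opposite direction at any of the 3 steps. All 5 helicase genes were called at the second and at the last step, and 0 of the 5 loading genes. Of the latter, Cdc6, Cdt1, Orc1 and the inhibitor Gmnn were under the negative controls on every array after mESC. The 2 roles are therefore not compared. The arrays of NPC and of mDPC each enter the step before and the step after them. The count of 15 at the first step fell to 8 without array 1 of WT NPC and to 9 without array 2 of BERKO NPC.

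Within a stage, the genotypes were close in mESC. Of the members, Pold1, the catalytic subunit of polymerase delta, was the 1 called there, with 8.21 and 8.16 in BERKO mESC, against 8.72 and 8.41 in WT mESC. The 2 groups did not overlap (difference -0.38 ± 0.09, SE, adjusted p = 0.0273), and this call was lost without array 1 of WT or without either BERKO array. That is 0 higher and 1 lower of 38, where 1.68% of tested genes were higher and 2.53% lower. The next largest differences were those of Gins2, with 8.05 and 8.01 in BERKO mESC, against 8.55 and 8.26 in WT mESC (-0.37, adjusted p = 0.0852), of Cdt1, with 10.53 and 10.67, against 11.03 and 10.86 (-0.34, adjusted p = 0.0961), and of Mcm5, with 13.61 and 13.67, against 13.38 and 13.41 (0.25, adjusted p = 0.385). Their groups did not overlap, and none passed the test.

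In NPC, BERKO arrays held more replication transcripts. Rrm2 had 10.72 and 11.10 in BERKO NPC, against 9.87 and 10.21 in WT NPC (0.87 ± 0.15, SE, adjusted p = 0.000446). Rrm1 had 14.04 and 14.06 in BERKO NPC, against 13.18 and 13.33 in WT NPC (0.80 ± 0.09, SE, adjusted p = 4.77e-06). In each case both BERKO arrays were above both WT arrays. The helicase subunit Mcm5 had 9.33 and 9.41 in BERKO NPC, against 8.49 and 8.82 in WT NPC (0.72 ± 0.14, SE, adjusted p = 0.00107). Prim1, the catalytic primase subunit, had 8.07 and 8.21 in BERKO NPC, against 7.40 and 7.54 in WT NPC (0.67 ± 0.11, SE, adjusted p = 0.000153). Again the groups did not overlap. In all, 23 of 38 members were higher in BERKO, where 10.6% of tested genes were, and the member median was 0.40 against 0.03 for all tested genes. They included 6 of 6 activation genes, 5 of 6 polymerase and primase genes and 0 of 5 loading genes. The activation genes Cdc7, Gins1, Gins2, Gins3 and Mcm10 were under the negative controls in both genotypes. So were Cdc6, Cdt1, Orc1 and the inhibitor Gmnn, counted as loading genes, and these counts therefore do not set the roles apart.

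E2f1 was the 1 member lower in BERKO NPC (5.08% of tested genes were lower), with 4.54 and 4.55, against 4.99 and 4.85 in WT NPC (-0.37 ± 0.10, SE, adjusted p = 0.0138). All 4 of its arrays were under the negative controls, and its call was lost without array 1 of WT NPC or without either array of BERKO NPC. Of the 24 members called, 9 lay under that level in both genotypes. The count of 23 fell to 10 without array 1 of WT NPC and to 12 without array 2 of BERKO NPC. Cell type markers moved with genotype at this stage: the 6 mesenchymal markers averaged 5.71 and 5.86 in BERKO NPC (0 of 6 above the negative controls), against 8.68 and 8.65 in WT NPC (4 of 6), and the oligodendrocyte precursor markers 10.51 and 10.37, against 9.33 and 9.15. Their part in the result was not tested.

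In mDPC the order was reversed, and the largest measured differences were those of helicase genes. Mcm6 had 5.88 and 5.69 in BERKO mDPC, against 7.54 and 7.23 in WT mDPC (-1.60 ± 0.14, SE, adjusted p = 1.31e-07). Mcm4 had 7.09 and 6.88 in BERKO mDPC, against 7.93 and 7.90 in WT mDPC (-0.93 ± 0.09, SE, adjusted p = 6.67e-07). For both genes the WT mean was above the negative controls (for Mcm6 in 1 of the 2 WT arrays) and every BERKO array was under them, which makes Mcm6 at least 1.16-fold and Mcm4 at least 1.67-fold lower in BERKO. Mcm3 had 5.29 and 5.40 in BERKO mDPC, against 6.27 and 6.57 in WT mDPC (-1.08 ± 0.14, SE, adjusted p = 1.89e-05). Mcm2 had 5.47 and 5.21 in BERKO mDPC, against 6.40 and 6.31 in WT mDPC (-1.02 ± 0.13, SE, adjusted p = 1.89e-05). For Mcm3 and Mcm2 the groups did not overlap, yet all 4 arrays were under the negative controls. The count was 0 higher and 14 lower of 38 (5.32% of tested genes were lower and 8.51% higher), with 5 of 5 helicase genes and 3 of 4 nucleotide supply genes, and a member median of -0.23 against 0.02 for all tested genes. In 10 of the 14, Mcm2, Mcm3 and Mcm5 among them, both genotypes were under the negative controls. The counts therefore do not set the roles apart. The neuron markers averaged 6.98 and 7.05 in BERKO mDPC, against 7.66 and 7.64 in WT mDPC, and the oligodendrocyte precursor markers 10.75 and 10.65, against 9.48 and 9.61. The radial glia markers averaged 11.19 and 11.15 in BERKO mDPC, against 12.09 and 11.95 in WT mDPC, with 3 of 7 called lower, 1 higher and a median difference of -0.07. Prom1 and Nes differed by -4.79 and -1.37. The part of these markers' cells in the result was not tested.

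In MN, BERKO was again the higher genotype. Rrm2 had 9.20, 9.41 and 9.38 in BERKO MN, against 8.57 and 8.33 in WT MN (0.88 ± 0.14, SE, adjusted p = 9.81e-05). Mcm6 had 8.96, 8.99 and 8.97 in BERKO MN, against 8.23 and 8.06 in WT MN (0.83 ± 0.13, SE, adjusted p = 9.59e-05). The 3 BERKO arrays of Mcm6 lay close together and well above WT. Rrm1 had 12.02, 12.02 and 12.10 in BERKO MN, against 11.38 and 11.24 in WT MN (0.73 ± 0.08, SE, adjusted p = 2.21e-06). Rfc4, a clamp loader subunit, had 8.56, 8.58 and 8.41 in BERKO MN, against 8.11 and 7.81 in WT MN (0.56 ± 0.14, SE, adjusted p = 0.0072). For both genes every BERKO array was above both WT arrays. In all, 17 of 38 members were higher (13.5% of tested genes) and none lower, with a member median of 0.26 against 0.01 for all tested genes, and 4 of the 17 were under the negative controls in both genotypes. The count fell to 6 without array 2 of WT MN and to 11 without array 3 of BERKO MN. All 8 neuron markers were lower in BERKO MN, where they averaged 7.14 to 7.39, against 7.81 and 9.5 in WT MN. The mesenchymal markers averaged 4.38 to 4.54 in BERKO MN and 7.52 and 7.40 in WT MN, and the ependymal markers 8.62 to 9.25 and 7.76 and 7.70. The myelinating oligodendrocyte markers averaged 6.95 to 7.64 in BERKO MN and 8.72 and 8.19 in WT MN. The astrocyte markers averaged 12.49 to 12.53 in BERKO MN and 12.23 and 12.07 in WT MN, with 4 of 7 called higher in BERKO and 1 lower. The part of these cell types in the result was not tested.

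**Figure D3:**
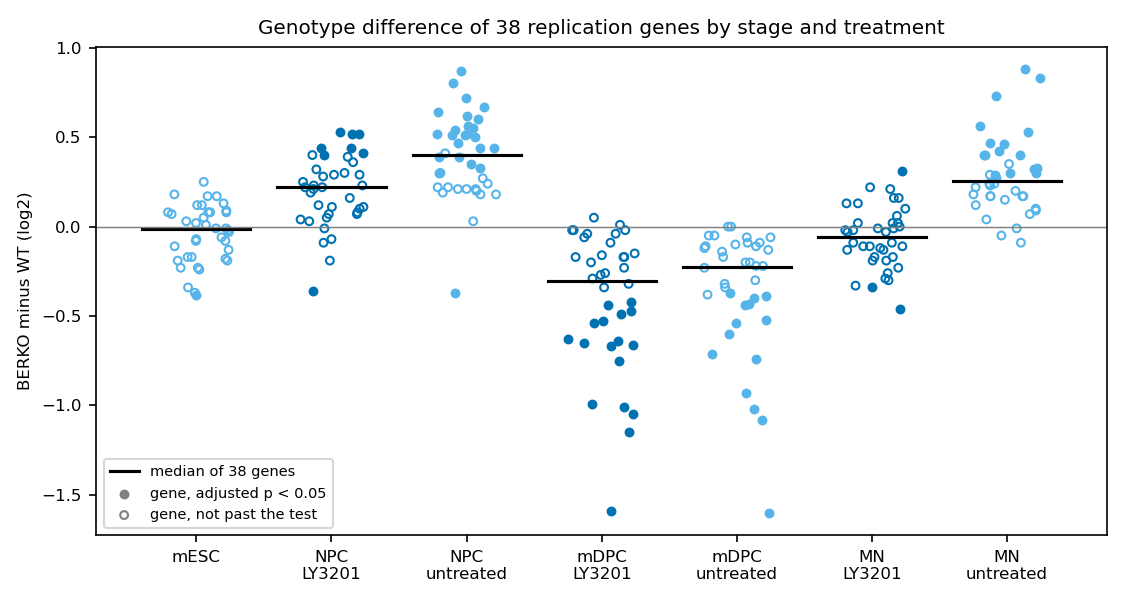
Log2 difference BERKO minus WT (vertical axis) of the 38 members at each stage, LY3201-treated arrays left of untreated ones; filled points passed the test and bars are medians. The median is above 0 in NPC and below 0 in mDPC with and without LY3201, and in MN the median is 0.26 in untreated arrays and -0.06 in treated ones.

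Among LY3201-treated arrays, 17 of 38 members were lower in BERKO mDPC (8.1% of tested genes) and none higher. Mcm6 had 5.94 and 6.13 in BERKO mDPC with LY3201, against 7.56 and 7.69 in WT mDPC with LY3201, with no overlap (adjusted p = 1.23e-07). Both BERKO arrays were under the negative controls, so Mcm6 was at least 1.39-fold lower in BERKO. Of the 17 members, 13 were under the negative controls in both genotypes. In NPC, 7 members were higher in BERKO (4.56% of tested genes), and 1 was lower (5.81%). Rrm2 led them with 10.71 and 10.58 in BERKO NPC with LY3201, against 9.93 and 10.31 in WT NPC with LY3201 (0.53 ± 0.15, SE, adjusted p = 0.0309). The lower one was again E2f1, with 4.60 and 4.46, against 4.86 and 4.91 (-0.36 ± 0.10, SE, adjusted p = 0.0255). The groups did not overlap for either gene. The count of 7 fell to 1 without array 1 of WT NPC with LY3201 and to 2 without array 2 of BERKO NPC with LY3201, and E2f1's call was lost without either of these or without array 2 of WT NPC with LY3201. In MN, 1 member was higher in BERKO (9.01%) and 2 were lower (10.6%). The higher one, Rrm1, had 11.85 and 12.12 in BERKO MN with LY3201, against 11.68 and 11.67 in WT MN with LY3201 (0.31 ± 0.09, SE, adjusted p = 0.0249). Mcm2 was lower, with 7.21 and 7.19 in BERKO MN with LY3201, against 7.48 and 7.84 in WT MN with LY3201 (-0.46 ± 0.13, SE, adjusted p = 0.0211). Mcm10, the helicase activation factor, was the other, with 4.83 and 4.91, against 5.02 and 5.39 (-0.34 ± 0.11, SE, adjusted p = 0.0382), all under the negative controls. The groups did not overlap for these 3 genes, and all 3 calls were lost without array 2 of WT MN with LY3201 or array 2 of BERKO MN with LY3201. Without array 1 of BERKO MN with LY3201 the counts were 1 higher and 0 lower, and without array 1 of WT MN with LY3201 they were 0 and 5. Without either array of WT NPC with LY3201, which enters through the shared estimate of spread, 4 members were lower.

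LY3201 went with higher replication transcripts in WT MN. Mcm2 had 7.48 and 7.84 in WT MN with LY3201, against 6.87 and 6.63 in untreated WT MN (0.91 ± 0.13, SE, adjusted p = 0.00582). Rrm2 had 9.10 and 9.43 with LY3201, against 8.57 and 8.33 untreated (0.82 ± 0.15, SE, adjusted p = 0.0122). For each gene both treated arrays were above both untreated ones, and Mcm2 was at least 1.74-fold higher, its untreated mean being under the negative controls. Mcm3 had 7.06 and 7.43 with LY3201, against 6.54 and 6.38 untreated (0.79 ± 0.14, SE, adjusted p = 0.0106), and was at least 1.3-fold higher. Mcm6 had 8.76 and 9.12 with LY3201, against 8.23 and 8.06 untreated (0.79 ± 0.14, SE, adjusted p = 0.0106). These helicase subunits too did not overlap between the groups. Rfc4 had 8.5 and 8.88 with LY3201, against 8.11 and 7.81 untreated (0.73 ± 0.16, SE, adjusted p = 0.0235). Mcm4 had 9.72 and 9.86 with LY3201, against 9.14 and 9.08 untreated (0.69 ± 0.09, SE, adjusted p = 0.00582). The second treated array was the higher one for all 6 genes, and the groups stayed apart.

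In all, 15 of 38 members were higher with LY3201 in WT MN, where 1.55% of tested genes were, and none were lower. All 38 differences were above 0, with a median of 0.36 against 0.02 for all tested genes. Besides the 6 above, the called members were the loading factor Cdc6, Ccne1, the activation genes Gins1 and Mcm10, the thymidylate synthase gene Tyms, the loader gene Rfc5, the primase and polymerase alpha genes Prim1 and Pola2, and Rrm1, with differences of 0.36 to 0.60. The signals of 6 of the 15 (Cdc6, Ccne1, Gins1, Mcm10, Tyms and Rfc5) were under the negative controls in both groups.

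**Figure D4:**
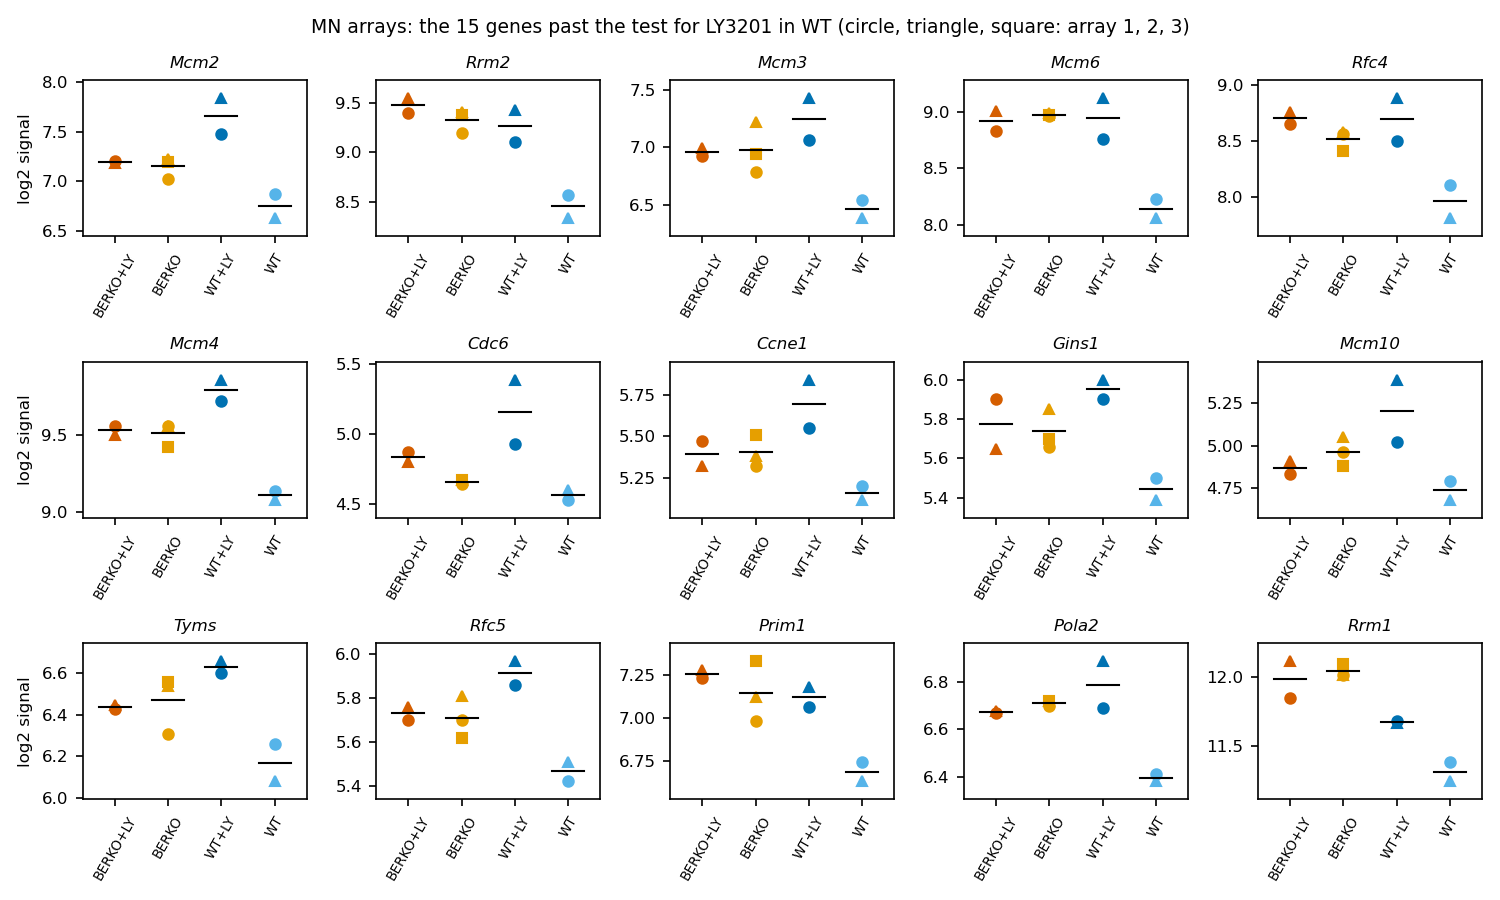
Log2 signal (vertical axis, its own range for each gene) on every MN array of the 15 members called for LY3201 in WT; symbols mark the array within its group and lines are group means. The 15 were picked by the WT comparison, so untreated WT lies below treated WT through that choice. By its mean, untreated WT MN is also below the BERKO groups for all 15, which rests on the same untreated WT arrays. The BERKO groups lie near each other.

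The WT MN result depended on single arrays and on the shared estimate of spread. The count of 15 fell to 2 without array 2 of untreated WT MN, to 9 without its array 1 and to 2 without array 2 of WT MN with LY3201, and a fit to the 2 compared groups alone called 0. The neuron marker level differed between replicates here, at 7.58 and 8.60 with LY3201, against 7.81 and 9.5 untreated, for arrays 1 and 2. With both second arrays left out, an alternative added after the data were seen, no member was called, the member median was 0.25 and 34 of 38 differences were above 0. None of the 8 neuron markers was called for LY3201 in WT MN, and their median difference was -0.54. The neuron markers Rbfox3 and Syp were under the negative controls on all 9 MN arrays. Among the other cell type markers, Gpr17 of oligodendrocyte precursors differed by -1.51, Ddc by -0.60, Prom1 by -0.52 and Nanog by 0.70, each past the test, with Ddc and Nanog under the negative controls in both groups. Their part in the result was not tested.

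**Figure D5:**
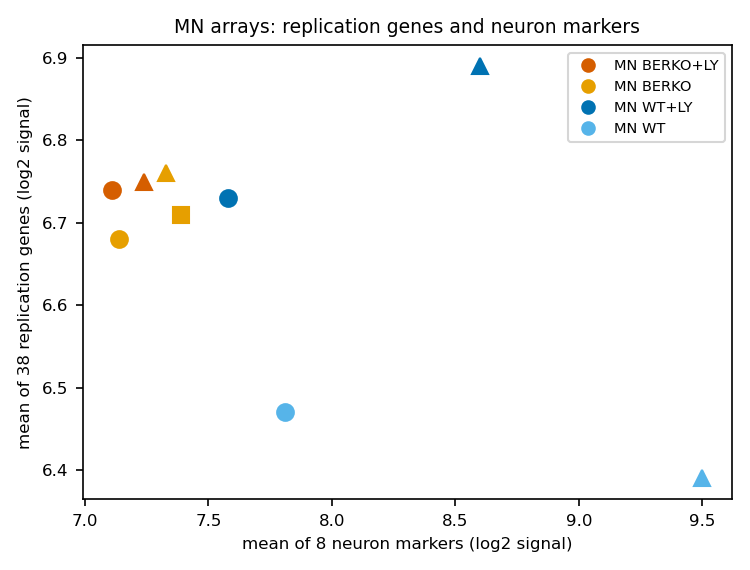
Mean log2 signal of the 38 members (vertical axis) against the mean of 8 neuron markers (horizontal axis) on the 9 MN arrays; each point is an array (circle, triangle and square for arrays 1, 2 and 3). Untreated WT arrays are the lowest on the vertical axis at 6.39 and 6.47, the second array of each WT group has the higher neuron level, and the 5 BERKO arrays lie together at 6.68 to 6.76.

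In BERKO MN, LY3201 went with no called change. Mcm2 had 7.21 and 7.19 in BERKO MN with LY3201, against 7.03, 7.23 and 7.20 in untreated BERKO MN, and Mcm4 had 9.56 and 9.5, against 9.56, 9.56 and 9.42. These arrays overlapped. Limma called 0 of 38 members in either direction (0.0453% of tested genes were higher and 0.299% lower), and the member median was 0.02. An unadjusted p under 0.05 was reached by 0 members and by 2489 of the 22063 tested genes. The difference between the genotypes' LY3201 effects passed the test for 2 of 38 members (0.594% of tested genes differed in this direction), Mcm2 at -0.86 ± 0.18 and Mcm4 at -0.67 ± 0.13 (SE; adjusted p = 0.0384 and 0.0281), with the BERKO effect the smaller. For the other 36 no difference between the genotypes was shown, though 20 of the 38 members had an unadjusted p under 0.05 for it. Of the 22063 tested genes, 3103 had such a p. The untreated WT MN arrays enter the LY3201 comparison in WT, the genotype comparison in untreated MN and this difference alike, so the 3 are not independent. The 2 calls were lost without array 2 of untreated WT MN, without array 2 of WT MN with LY3201 or without either BERKO MN array with LY3201, and 6 members were called without array 1 of WT MN with LY3201. Leaving out array 1 of untreated BERKO MN gave 4 calls and array 3 gave 1, and 1 member was called without either array of BERKO NPC with LY3201 or either of untreated WT mDPC, which enter through the shared spread.

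At the earlier stages LY3201 went with no called member in either genotype. In BERKO NPC the member median was -0.17, with Mcm5 at -0.35 (adjusted p = 0.498), where 0.0% of tested genes were called in either direction. There 10 of 38 members and 1843 of the 22063 tested genes had an unadjusted p under 0.05. In WT NPC the median was 0.05 and 1 member had an unadjusted p under 0.05, as did 2204 tested genes (0.00453% of tested genes were called higher and 0.0% lower). In mDPC the medians were 0.00 in BERKO and 0.09 in WT, with 3 members at an unadjusted p under 0.05 in each. Among all tested genes, 1857 in BERKO mDPC and 2800 in WT mDPC had such a p, so the member share was no larger than theirs. The called shares of tested genes there were 0.0589% higher and 0.0544% lower in BERKO, and 0.0363% and 0.0272% in WT. Between the genotypes, a difference in LY3201 effect was called for 0 members in NPC (0.00453% of tested genes higher, 0.494% lower) and 0 in mDPC (0.0% in either direction), with 8 and 3 at an unadjusted p under 0.05. Of all tested genes, 2846 in NPC and 1845 in mDPC had such a p for this difference.

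Further replication genes outside the list were counted in the same comparisons. Of 37 measured, among them origin recognition, polymerase and fork protection genes, 35 fell and 2 rose from mESC to NPC in BERKO (35.9% of tested genes fell and 27.7% rose), and 34 fell and 2 rose in WT (35.0% and 27.9%), with Ticrr, a helicase activation factor, falling by 5.74 and by 6.48. From mDPC to MN, 24 rose and 5 fell in BERKO (20.1% of tested genes rose and 30.8% fell), and 16 rose and 8 fell in WT (18.0% and 24.0%). In BERKO against WT, 14 were higher in NPC (10.6% of tested genes), 6 were lower in mDPC (5.32%) and 13 were higher in MN (13.5%). With LY3201 in WT MN, where 1.55% of tested genes were higher, 5 of 37 were, among them the polymerase epsilon subunit Pole2 at 0.65 and the maintenance methylation factor Uhrf1 at 0.62, and in BERKO MN 0 were called. Of 20 checkpoint and fork repair genes 7 were higher with LY3201 in WT MN, led by the exonuclease Exo1 at 0.68. Of 28 genes of G1 and S phase control 1 was, the cyclin Ccna2 at 0.50. Of 26 other nucleotide synthesis genes 2 were, Nme2 at 0.53 and Cad, which starts pyrimidine synthesis, at 0.44, and of 8 histone genes 1 was. These lists were assembled with earlier results of the same arrays known.

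Mitosis genes were measured beside them. From mESC to NPC, 18 of 28 were lower and 8 higher in BERKO (35.9% of tested genes were lower and 27.7% higher). In WT 22 were lower and 2 higher (35.0% and 27.9%), and the list medians were -0.68 in BERKO and -1.43 in WT. From NPC to mDPC all 28 were lower in each genotype (18.9% and 15.8% of tested genes were). In mDPC 0 of the 28 were above the negative controls on the BERKO arrays and 3 on the WT arrays, so the measured medians of -6.19 and -4.38 end at background and are not set against those of the members, many of which were at background in NPC already. From mDPC to MN 28 of 28 were higher in BERKO (20.1% of tested genes) and 27 of 28 in WT (18.0%). In BERKO against WT, 28 were higher in NPC (10.6% of tested genes), 18 were lower in mDPC (5.32%) and 26 were higher in MN (13.5%). Most of the 18 were under the negative controls in both genotypes. With LY3201, 14 of 28 were higher in WT MN (1.55% of tested genes), led by Ccnb2 at 1.05 and Bub1 at 0.94, and 0 were called in BERKO MN.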

How the data were processed

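RNA of 29 cultures was measured on Affymetrix Clariom D mouse arrays, 150 ng of total RNA each. The authors deposited log2 values made with SST-RMA in Affymetrix Expression Console 1.4, per the labels, and these were used as deposited. The build of the array's annotation is not given in the sources used here. Of 65956 transcript clusters, 30604 had 1 gene symbol, 2146 several and 33206 none, and 827 symbols were updated through their gene IDs to RefSeq (GRCm38.p6). A gene took its cluster of highest mean and was tested if at least 2 arrays exceeded their array's median, which left 22063 genes. One linear model with a mean for each of the 14 groups was fitted in limma 3.58.1 (R 4.3.3, lmFit and eBayes, 15 residual degrees of freedom), and Benjamini-Hochberg adjustment ran over all genes tested in each comparison, with a threshold of 0.05.

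Members and gene lists were chosen with earlier results of these data known. Values by array are given for the members of largest change, up to 6 called members per genotype for LY3201 in MN and up to 4 per stage for genotype (called or not), and for members called against the majority. On simulated data of the LY3201 comparison in WT MN (22063 genes) the model recovered 14% of changes of 0.3, 46% of 0.5, 86% of 1 and 94% of 2 on the log2 scale, with 11 false calls. The simulated noise had each gene's spread over all groups and was independent between genes. Replicates differed more in WT MN, by an SD of 0.346 untreated and 0.354 with LY3201. These figures therefore do not cover the wider spread of the arrays compared. With 2 or 3 arrays a group the number of arrays limits the precision. The settings varied were the filter (none, or a stricter one at the 75th percentile), the normalization (quantile), the prior (trended and robust), the arrays in the fit (only those of the groups compared, or without each array in turn), the cluster taken for a gene, and the averaging of arrays whose titles share a number. In 2 groups (BERKO mESC and WT NPC with LY3201) the arrays share a number in their titles. Their values differed by an SD of 0.253 and 0.251, inside the range of other pairs (0.182 to 0.354). They were kept as separate samples, though this spread cannot show whether they come from separate cultures.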

Additional observations from a re-analysis of the deposited data

Results flagged for a closer look

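Mcm2 and Mcm4 were noted because the effect of LY3201 in MN differed between the genotypes by the test of that difference. For Mcm2 the BERKO effect minus the WT effect was -0.86, and for Mcm4 it was -0.67. The treated minus untreated differences in WT MN were 0.91 and 0.69.

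The 3 steps between stages were noted because their size differed between the genotypes by the same kind of test, for 15 members from mESC to NPC, 23 from NPC to mDPC and 20 from mDPC to MN. Most members were under the negative controls in mDPC, which limits the sizes of the last 2. Groups of 2 or 3 arrays were too small to be searched for single outlying arrays.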

How the results depend on the processing

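No paired analysis was possible because the labels give the groups no shared replicate numbers. Of 1628 repeats of named members' results (44 results, 37 alternatives), 1444 kept their call, 184 lost it and 0 reversed. Of the 37 alternatives, 29 each left out 1 array, mostly of a group outside the comparison, which alters only the shared spread. Each of the 38 members had 1 cluster, so the choice of cluster could not alter its values. The share that kept its call is therefore no measure of stability. Member counts that moved by over 1.5 times follow, and the cause was not tested. With quantile normalization, the members higher in BERKO were 14 in NPC and 9 in MN, those higher with LY3201 in WT MN were 9, and the LY3201 effects in MN differed for 0. In LY3201 arrays the members lower in BERKO were then 0 in NPC and 1 in MN, Pold1's call in mESC was lost (0), and 3 members in WT and 1 in BERKO fell from mDPC to MN. Fitting the compared groups alone gave 9 for the mESC to NPC difference, 9 higher and 0 lower in BERKO NPC, 6 higher in BERKO MN, 0 lower in BERKO mESC, 0 for LY3201 in WT MN and 0 for the difference of its effects. In LY3201 arrays it gave 2 higher and 0 lower in NPC, 11 lower in mDPC, and 0 in either direction in MN. The stricter filter gave 5 members for the difference of LY3201 effects in MN. Averaging arrays that share a title number gave 1 there, 0 lower in BERKO mESC, and 2 higher and 0 lower in NPC with LY3201. With the second array of both WT MN groups left out (chosen after seeing the data), 6 members were higher in BERKO MN and 0 were called in the 2 LY3201 results and in the genotype comparison of treated MN. The stricter filter, the trended prior, the averaging and that alternative each gave 1 member lower from mDPC to MN in WT and 1 in BERKO, where the count was 0.

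Leaving out each array gave 8 to 16 for the mESC to NPC difference, 10 to 24 higher and 0 to 1 lower in BERKO NPC, 6 to 18 higher in BERKO MN, 0 to 1 lower in BERKO mESC, 2 to 17 for LY3201 in WT MN, and 0 to 6 for the difference of its effects. In LY3201 arrays it gave 1 to 10 higher and 0 to 1 lower in NPC, and 0 to 1 higher and 0 to 5 lower in MN. From mDPC to MN 0 to 1 fell in each genotype.

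Quantile normalization moved the median of all tested genes by over 0.1 in 1 comparison, NPC against mESC in BERKO, where it was 0.01 in place of -0.10 and the member median -2.66 in place of -2.83. It moved the split of calls over all genes, higher against lower, for LY3201 in WT MN (343 and 60, then 149 and 96), in BERKO MN (10 and 66, then 9 and 25) and for their difference (8 and 131, then 2 and 7). For BERKO against WT the splits were 2334 and 1120, then 1326 and 1702 in NPC, 1877 and 1174, then 1445 and 1709 in mDPC, and 2972 and 1612, then 2370 and 2034 in MN. For the mESC to NPC difference they were 1401 and 718, then 1049 and 938. Signals under the negative controls limit what can be said of most members after mESC.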
